A study of Mus musculus with 22 samples.

Results

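The subject of these measurements was the open chromatin around 10 mouse genes that mark the bile duct epithelium: the keratins Krt7, Krt19, Krt8 and Krt18, the surface proteins Epcam, Cd24a, Prom1 and Muc1, the secreted phosphoprotein Spp1 and the RNA-binding protein Bicc1. Members were chosen by name, and their peaks by a rule: every ATAC-seq peak that the deposited table assigns to one of the 10 genes and places at most 50000 bp from that gene's start. The rule found 35 of 68827 peaks and 10 of the 15686 genes that have such a peak. Of the 35, 12 lay within 1000 bp of a start and are called promoter peaks here, and 23 lay farther away.

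Nuclei were immunoprecipitated from livers of male HEP-INTACT mice to make the 22 libraries. Each title carries a number found in no other title, and the labels do not say what it stands for, so p-values measure the spread between these samples. FPC denotes a NASH-inducing diet fed for 20 weeks and CDAHFD another fed for 7 weeks, and each had its own 4 control libraries, from mice on a low fat diet over an equal period. Animals on a NASH-inducing diet were graded by liver histology as mild (4 libraries per diet) or advanced (3 per diet): steatosis and inflammation were high in both grades, and significant fibrosis was seen in the advanced grade alone. All mice carry the HEP-INTACT tag. The promoter or cell type that drives the tag, the strain and the ages of the mice are not given in the labels. ATAC-seq cuts accessible DNA with a transposase, and the count of a peak measures how open that stretch is, not how much RNA the gene makes.

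Simple epithelia hold their shape with keratin filaments built from pairs of a type I and a type II keratin. Krt8 (type II) and Krt18 (type I) form the pair of hepatocytes and are also made by bile duct cells, whereas Krt7 (type II) and Krt19 (type I) mark bile duct cells and are largely silent in healthy hepatocytes. Epcam, Cd24a and Prom1 are used to sort bile duct and progenitor cells, and in injured liver several of these markers also appear in cells of mixed hepatocyte and biliary character.

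Values are CPM, counts divided by library totals that were scaled by the TMM method, and a gene sum adds all peaks of a gene within 50000 bp. A change is a log2 difference from edgeR's quasi-likelihood test with its standard error, and higher or lower means a Benjamini-Hochberg adjusted p under 0.05 over all genes or all peaks. Total counts ran from 3785066 to 9328963 per library, with the FPC controls at 3785066 to 6039070.5 and the CDAHFD controls at 5952279.5 to 8384986. Of 17 hepatocyte markers 16 had a peak, with a summed level of 2670 to 2981 CPM in FPC controls and 2535 to 2992 CPM in CDAHFD controls. Of 12 stellate cell markers 2 had a peak, of 12 macrophage markers 4, of 10 endothelial markers 7 and of 10 lymphocyte markers 3.

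One property of the deposited table bears on every value below. Each of its peaks reaches at least 31.5 counts in some library, so a region that is closed in controls is listed only if it opened elsewhere. Of the 35 peaks, 19 reached that level in at least 1 control library, and they belong to 5 genes (Krt8, Krt18, Prom1, Spp1 and Muc1). The other 16 reached it in diseased livers alone. Krt7, Krt19, Epcam, Cd24a and Bicc1 had peaks of this second kind alone, and the other 5 genes had both kinds. Over the whole table, 6486 peaks were of this second kind, and 89.8% of them were called higher in FPC advanced livers and 96.5% in CDAHFD advanced livers. A change of such a peak against controls or mild livers, and of a gene that has no other peaks, is therefore given by its size and its spread, with no p, and nothing is read from how many of them were called.

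The gene sums of Krt8, Krt18, Muc1, Prom1 and Spp1, which have a peak that reached the table's minimum in controls, were all higher in FPC advanced livers than in their controls. Of the 15111 genes of that kind 28.4% were called higher and 31.6% lower. In CDAHFD advanced livers 4 of the 5 were higher and none lower, with Prom1 the exception, against 25.9% and 31.1%. The median change of these 5 was 0.46 on the log2 scale in FPC and 0.39 in CDAHFD, beside -0.01 and -0.03 over the 15111 genes. These 5 sums also hold peaks that reached the minimum in diseased livers alone. Neither their count nor their median is free of that selection, here or in the comparisons below. In FPC the Muc1 sum rose from 6.90 to 23.4 CPM, and its diseased-only peak from 1.44 to 16.5. The Krt18 sum rose from 162 to 239 CPM, and its diseased-only peak from 2.15 to 8.28. Krt7, Krt19, Epcam, Cd24a and Bicc1 were higher in both diets. Of the 575 genes without a peak that reached the minimum in controls, 91.1% (FPC) and 95.8% (CDAHFD) were called higher. Nothing is therefore read from the count of these members. Over all genes 30.7% were higher and 30.5% lower in FPC, and 28.5% and 30.0% in CDAHFD. edgeR called no member's sum lower, also at an unadjusted p under 0.05, and neither did DESeq2 or limma-voom, here or in the 5 other comparisons of grades. The members fell into 2 ranges of size: Krt7, Krt19, Epcam, Cd24a, Muc1 and Bicc1 changed by 1.17 to 3.56 log2 units, and Krt8, Krt18, Prom1 and Spp1 by 0.10 to 0.93. All of the first range but Muc1 are among the 575 genes, whose median change was 2.17 in FPC and 2.24 in CDAHFD. The split is therefore not read as a trait of these members. Because nuclei were pooled before counting, a larger share of nuclei from another cell type and a wider opening in the same nuclei cannot be told apart here.

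**Figure D1:**
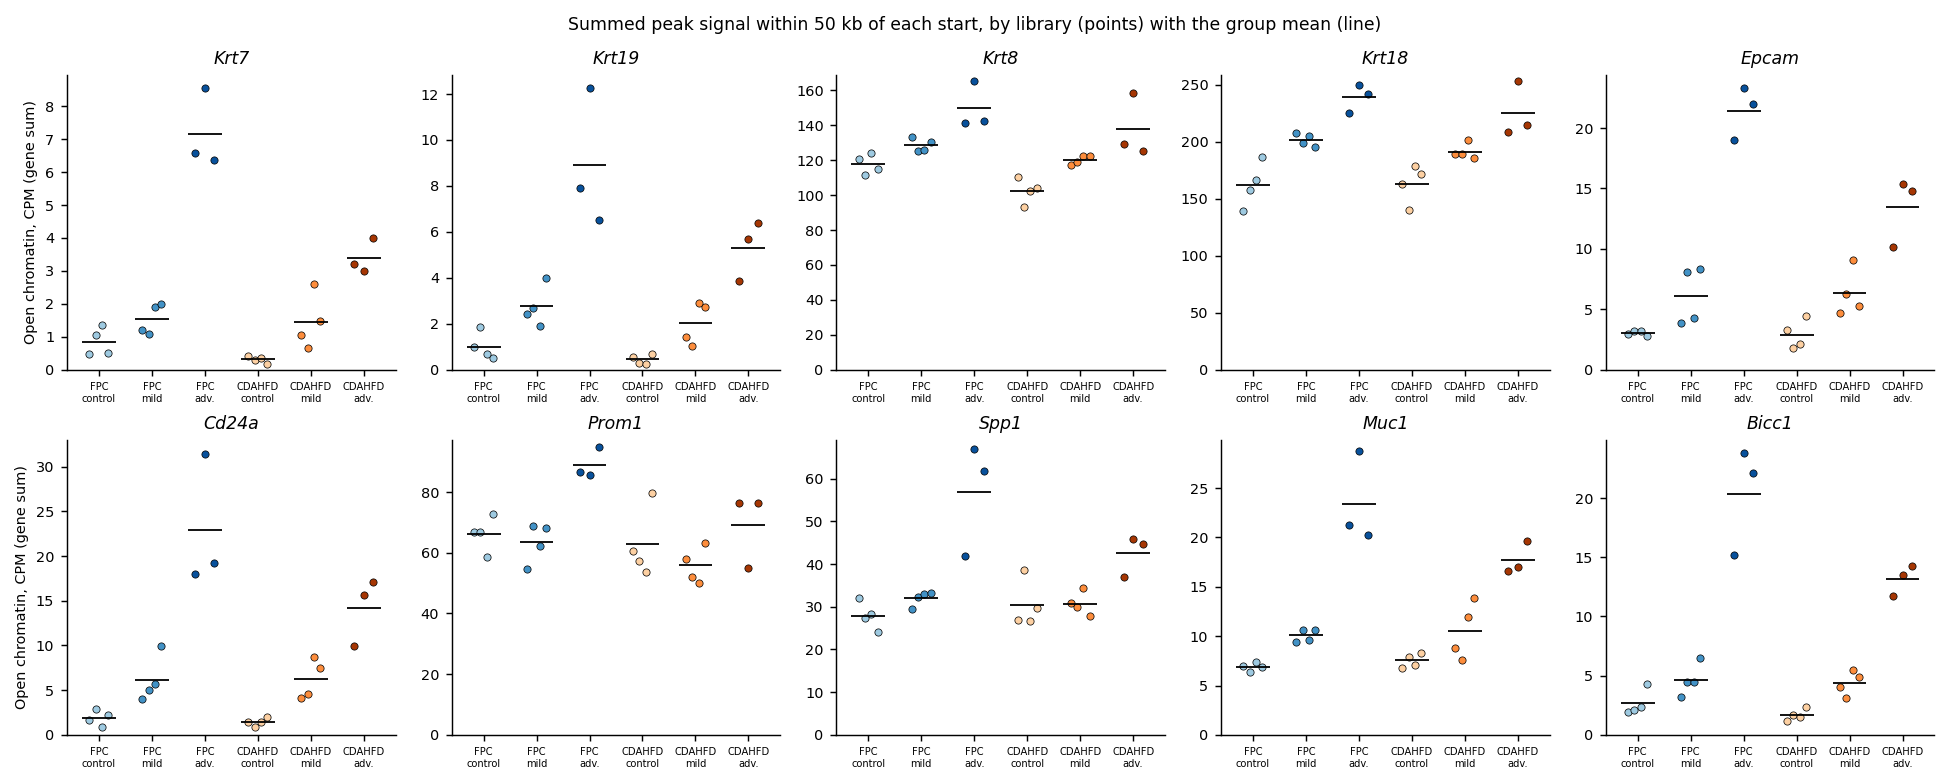
Gene sums in CPM (vertical axes, from 0) for the 10 genes in each of the 22 libraries (points), by diet and grade, with the group mean as a line. Advanced and control livers overlap for Prom1 and Spp1 in CDAHFD and for no gene in FPC. The share of all genes whose groups do not overlap was not computed, so nothing is read from this.

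Krt7, the type II keratin of bile ducts, has 1 listed peak, centred 31 bp upstream of its start (chr15:101412272-101412472, mm10, annotated as promoter). It read 0.485, 1.06, 1.34 and 0.506 CPM in the 4 FPC controls, 1.21, 1.08, 1.89 and 2.0 in the mild and 6.58, 8.55 and 6.36 in the advanced livers. The CDAHFD controls read 0.424, 0.299, 0.356 and 0.17, the mild livers 1.04, 0.653, 2.59 and 1.47 and the advanced livers 3.21, 3.0 and 3.98 CPM. Advanced livers of both diets stood clear of the other grades, and mild and control livers overlapped in FPC only. The gene-level change was 2.88 ± 0.34 in FPC (7.39-fold) and 3.27 ± 0.42 in CDAHFD (9.64-fold). This value depended on the level of the fit. With cyclic loess scaling, which follows a trend in signal strength, the gene-level change was 2.40 in FPC and 2.83 in CDAHFD, whereas in the fit of single peaks it was 0.24 in FPC and -0.08 in CDAHFD. Its mean over all libraries was 2.19 CPM, and of the 1135 peaks with a mean of 2 to 3 CPM, 83.9% were called higher in FPC and 87.0% in CDAHFD advanced livers.

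Krt19, the type I partner of Krt7, also has 1 listed peak, and it is not at the promoter: it lies 22381 bp upstream (chr11:100168207-100168407), in an intergenic stretch by the deposited annotation and inside the long non-coding gene Gm39022 by RefSeq. FPC controls read 0.969, 1.86, 0.672 and 0.506 CPM there, mild livers 2.41, 2.69, 1.89 and 4.0 and advanced livers 7.92, 12.2 and 6.52. In the CDAHFD set the values were 0.565, 0.299, 0.238 and 0.679 in controls, 1.42, 1.04, 2.91 and 2.72 in mild and 3.85, 5.67 and 6.4 in advanced livers. The 3 grades did not overlap in either diet. Gene-level changes were 3.10 ± 0.39 in FPC and 3.48 ± 0.43 in CDAHFD. With cyclic loess scaling the peak's change shrank to 1.25 in FPC and 1.10 in CDAHFD.

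Krt8 and Krt18 differ from the other keratins in that their promoters were open in every control. The genes lie head to head on chromosome 15, with 23874 bp between their starts, and 10 of their 16 peaks sit in that interval. Promoter sequences from RefSeq (GRCm38.p6), shown for the keratin promoters that were open in controls and for 2 that were nearly closed there, are the bases upstream of the start that the listed peak covers, in the direction of the gene. RefSeq windows were found for 7 of the 10 members.
Krt8 (chr15:102004343-102004470, minus strand): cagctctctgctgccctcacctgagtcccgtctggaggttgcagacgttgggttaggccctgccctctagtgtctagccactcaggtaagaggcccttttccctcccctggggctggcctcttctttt
Krt18 (chr15:102028063-102028215, plus strand): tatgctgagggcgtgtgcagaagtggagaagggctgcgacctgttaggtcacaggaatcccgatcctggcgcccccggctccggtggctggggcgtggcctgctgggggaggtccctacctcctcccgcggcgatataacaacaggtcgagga
Krt7 (chr15:101412272-101412402, plus strand): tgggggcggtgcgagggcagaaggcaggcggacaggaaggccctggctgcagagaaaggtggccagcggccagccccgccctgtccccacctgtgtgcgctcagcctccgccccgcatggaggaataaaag
Spp1 (chr5:104434961-104435110, plus strand): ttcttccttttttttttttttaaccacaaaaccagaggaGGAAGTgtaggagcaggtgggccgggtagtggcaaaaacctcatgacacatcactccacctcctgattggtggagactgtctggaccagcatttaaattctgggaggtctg
Capitals mark the only match to 6 motifs searched on both strands: the ETS letters GGAAGT in Spp1, which 19.7% of the 32851 RefSeq windows of 250 bases before a start also hold. The other 5 were AP-1 (TGANTCA, in 6.75% of windows), TEAD (GGAATG, 12.6%), SOX (ACAATG, 10.7%), HNF1 (core letters GTTAAT, 6.43%) and HNF4A (CAAAGTCCA, 0.384%), none of which occurs in these 4 stretches. The stretches shown hold 128 to 153 bases, so the shares over windows of 250 bases are not a like comparison. Over 250 bases before the start, Krt7 and Krt8 also held the ETS letters and Spp1 the HNF1 letters. In the stretches shown, the G and C content was 60.2% for Krt8, 65.4% for Krt18, 69.5% for Krt7 and 46.7% for Spp1.

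Summed over 9 peaks, Krt8 read 121, 112, 124 and 115 CPM in FPC controls, 133, 125, 126 and 130.5 in mild and 141, 166 and 143 in advanced livers. The CDAHFD values were 110.4, 93.2, 102 and 104 in controls, 118, 119, 123 and 122 in mild and 129, 159 and 125 in advanced livers. All advanced libraries exceeded all mild ones, which exceeded all controls, and the changes were 0.25 ± 0.07 in FPC (adjusted p = 0.0035) and 0.35 ± 0.07 in CDAHFD (adjusted p = 9.3e-05). Within the sum, peaks moved in opposite directions. The promoter peak 28 bp upstream rose by 0.54 ± 0.09 in FPC (adjusted p = 1.9e-05) and 0.58 ± 0.09 in CDAHFD (adjusted p = 2.4e-06), from 24.4 ± 1.38 CPM (SD, n = 4) in FPC controls to 35.5 ± 1.88 (n = 3) in advanced livers. Inside intron 1, the peak 1200 bp downstream fell in both diets, with a change of -0.55 ± 0.14 in FPC (adjusted p = 0.0015) and -0.97 ± 0.13 in CDAHFD (adjusted p = 7.6e-07). Its neighbour 993 bp downstream fell in FPC (-0.43 ± 0.15, adjusted p = 0.014) and changed by -0.33 ± 0.15 in CDAHFD (adjusted p = 0.057). In a separate fit of promoter peaks only, which include the one at 993 bp, Krt8 changed by -0.09 in FPC and 0.11 in CDAHFD (adjusted p = 0.29). That fit rescaled the libraries on promoter peaks. In the main peak fit all promoter peaks of the table had a median change of 0.19 in FPC and 0.11 in CDAHFD. The value of -0.09 is therefore not on the scale of the full sum. In CPM the peak at 993 bp went from 26.9 in FPC controls to 20.0 in advanced livers.

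The peak 1134 bp upstream of Krt8 (chr15:102005376-102005576) had the largest change of the 16 peaks of both genes. FPC controls read 1.94, 1.06, 0.672 and 0.759 CPM, mild livers 4.42, 3.23, 3.44 and 3.0 and advanced livers 9.78, 11.7 and 11.5. CDAHFD controls read 0.706, 0.598, 0.594 and 0, mild livers 6.73, 6.01, 6.96 and 6.07 and advanced livers 14.3, 18 and 10.4. Grades were separate in both diets, and with cyclic loess scaling the change was 2.39 in FPC and 3.54 in CDAHFD. The changes were 3.33 ± 0.31 in FPC and 4.78 ± 0.31 in CDAHFD advanced livers. In mild livers it changed by 1.69 ± 0.36 in FPC and 3.64 ± 0.32 in CDAHFD. The difference between these mild changes, -1.95 ± 0.56, was the 1 member value of either level called in the test of a diet difference. This peak reached the table's minimum in diseased livers alone. Of the 6486 such peaks 6.35% were called lower in that test and 0.339% higher, with a median of -0.56, so nothing is read from the call. That call was lost in 13 of the 16 fits that left out 1 library of these groups, and with cyclic loess scaling, thinned libraries, only the groups compared or limma-voom. The peaks 2205 and 9469 bp upstream changed by 2.61 ± 0.33 and 1.70 ± 0.22 in FPC and 2.59 ± 0.36 and 1.89 ± 0.21 in CDAHFD. The nearer of them was at 0.64 in FPC and 0.10 in CDAHFD with cyclic loess scaling.

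Another 3 peaks assigned to Krt8 lie 16025, 19918 and 23280 bp downstream of its start, beyond its end and inside RefSeq's Krt78. The outermost changed by 2.23 ± 0.38 in FPC and 2.98 ± 0.36 in CDAHFD. The middle one, at 26.8 ± 4.64 CPM in FPC controls (SD, n = 4), changed by -0.11 ± 0.13 and 0.13 ± 0.13 and was not called. The innermost changed by 0.67 ± 0.26 and 0.68 ± 0.25, with overlapping groups. Without 1 of 3 FPC libraries (control replicates 1 and 3, advanced replicate 2) or 1 of 4 CDAHFD libraries (control replicates 1 and 2, advanced replicates 1 and 2) its changes were 0.42 to 0.62.

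Krt18 was summed over 7 peaks. It read 139, 158, 166 and 187 CPM in FPC controls, 207, 199, 205 and 195 in mild and 225, 249 and 242 in advanced livers. In CDAHFD it read 163, 140.2, 178 and 171 in controls, 189, 189, 201 and 186 in mild and 208, 253 and 215 in advanced livers. The 3 grades were again separate in both diets. The changes were 0.46 ± 0.08 in FPC (adjusted p = 2.7e-05) and 0.39 ± 0.08 in CDAHFD (adjusted p = 1.3e-04). The promoter peak 53 bp upstream was not called, at 0.31 ± 0.14 in FPC (adjusted p = 0.054) and 0.16 ± 0.13 in CDAHFD (adjusted p = 0.32).

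Other peaks lie in intron 1 and upstream. At 834 bp downstream, in the kind of peak listed for diseased livers alone, the signal changed by 1.92 ± 0.22 in FPC and 1.40 ± 0.19 in CDAHFD, from 2.15 ± 0.452 to 8.28 ± 0.757 CPM in FPC (SD, n = 4 and 3). The peak 11334 bp upstream, near the middle of the interval shared with Krt8, read 10.7, 18.6, 16.8 and 25.8 CPM in FPC controls, 27.7, 27.3, 29.3 and 27.2 in mild and 43.8, 54.3 and 44.1 in advanced livers. In CDAHFD it read 18.9, 9.27, 17.5 and 20 in controls, 26.7, 27.7, 33.7 and 29.9 in mild and 39.5, 51.9 and 40.5 in advanced livers. It was open in every control, it reached the table's minimum there, and its change was 1.41 ± 0.18 in FPC and 1.41 ± 0.17 in CDAHFD (adjusted p = 3.9e-07 and 1.0e-07). By contrast the peak 1584 bp upstream fell in CDAHFD (-0.41 ± 0.07, adjusted p = 2.5e-05) and changed by -0.17 ± 0.08 in FPC (adjusted p = 0.065). The remaining peaks, 11132, 10043 and 2443 bp upstream, rose in both diets, by 0.76 ± 0.13, 0.35 ± 0.09 and 0.91 ± 0.19 in FPC and by 0.75 ± 0.12, 0.36 ± 0.08 and 0.70 ± 0.18 in CDAHFD. In a separate fit of peaks within 10 kb of a start, the Krt18 sum was at 0.16 in FPC (adjusted p = 0.073) and at -0.04 in CDAHFD. That fit both left out the far peaks and rescaled the libraries on the peaks kept, and the 2 effects were not separated.

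Across the interval between the 2 genes, 8 of 10 peaks were higher in FPC advanced livers and none lower, beside 27.6% and 28.0% of all peaks. In CDAHFD 8 were higher and 1 was lower, beside 26.7% and 28.8%. Of the 8, the Krt8 peaks 2205 and 1134 bp upstream reached the table's minimum in diseased livers alone. These peaks share 1 locus and are not independent.

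**Figure D2:**
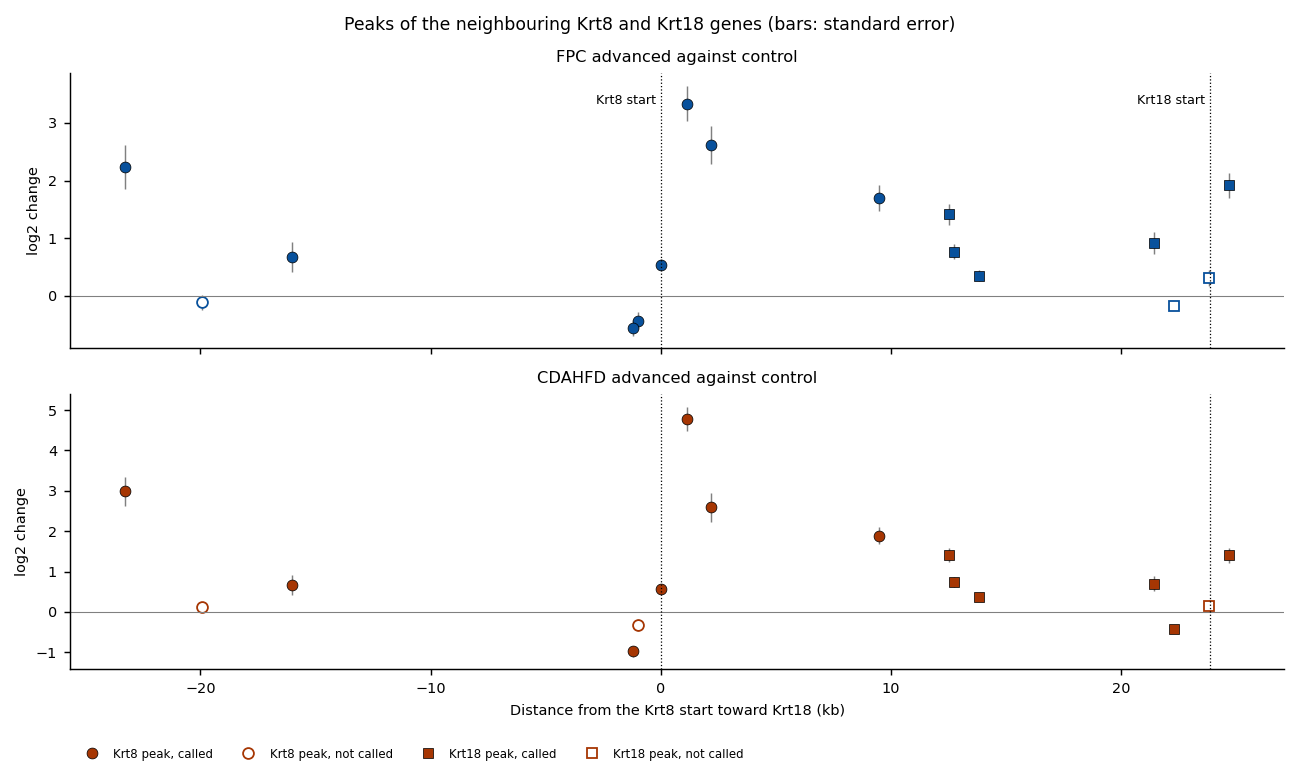
Log2 change in advanced livers (vertical axis, bars for the standard error) of the 16 peaks assigned to Krt8 (circles) and Krt18 (squares), by distance from the Krt8 start in kb, with dotted lines at both starts and filled symbols for called peaks. The highest point, 1134 bp from the Krt8 start, is at 3.33 in FPC and 4.78 in CDAHFD, and the lowest is the intron peak on the other side of that start.

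Among the surface proteins, Epcam encodes an epithelial adhesion molecule. Its 2 peaks, 583 and 730 bp downstream of the start (deposited annotation: 5′ UTR, exon 2 of 10), share 53 bp, so some reads count in both. The sum was 2.91, 3.18, 3.19 and 2.78 CPM in FPC controls, 3.82, 8.08, 4.3 and 8.33 in mild and 19.1, 23.4 and 22 in advanced livers. It was 3.25, 1.79, 2.14 and 4.41 CPM in CDAHFD controls, 4.66, 6.27, 9.06 and 5.23 in mild and 10.2, 15.4 and 14.8 in advanced livers. Each grade lay above the one before it in both diets. Advanced livers differed from controls by 2.72 ± 0.27 in FPC (6.6-fold) and by 2.15 ± 0.26 in CDAHFD (4.45-fold). The peak at 583 bp changed by 3.58 ± 0.34 in FPC and 2.71 ± 0.32 in CDAHFD, and the peak at 730 bp by 2.24 ± 0.31 and 1.81 ± 0.30.

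Cd24a encodes a small surface glycoprotein anchored in the membrane. Both of its peaks are at the promoter, centred 187 and 39 bp upstream, and overlap by 52 bp. Summed, they read 1.7, 2.92, 0.84 and 2.28 CPM in FPC controls, 4.02, 5.03, 5.68 and 10 in mild and 18, 31.5 and 19.3 in advanced livers. CDAHFD controls read 1.41, 0.897, 1.43 and 2.04, mild livers 4.14, 4.57, 8.74 and 7.54 and advanced livers 9.94, 15.7 and 17.1 CPM. Again no grade overlapped another. This was the largest FPC change of the 10 gene sums, 3.56 ± 0.36 (11.8-fold), beside 3.21 ± 0.35 in CDAHFD (9.28-fold). The outer peak changed by 4.06 ± 0.44 in FPC and 3.16 ± 0.40 in CDAHFD, and the inner one by 3.32 ± 0.37 and 3.39 ± 0.40.

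Muc1 encodes a mucin of the apical membrane. Its promoter peak 732 bp upstream was open in controls and not called in either diet, at 0.33 ± 0.18 in FPC (adjusted p = 0.13) and 0.12 ± 0.17 in CDAHFD (adjusted p = 0.57). The other peak lies 4638 bp downstream of the start (chr3:89233594-89233794, annotated as a transcription end site). That peak read 1.94, 1.06, 1.01 and 1.77 CPM in FPC controls, 4.02, 3.59, 3.44 and 4.0 in mild and 14.2, 20.8 and 14.5 in advanced livers. In CDAHFD its values were 0.847, 0.748, 1.43 and 0.509 in controls, 3.11, 1.83, 5.18 and 6.7 in mild and 9.19, 10.3 and 12.2 in advanced livers. Controls stayed below every diseased liver. It changed by 3.53 ± 0.33 in FPC and 3.49 ± 0.33 in CDAHFD advanced livers, and the gene sum by 1.66 ± 0.18 and 1.17 ± 0.16. In the separate fit of promoter peaks only, rescaled on those peaks, the same promoter peak changed by 0.13 in FPC (adjusted p = 0.58) and 0.01 in CDAHFD (adjusted p = 0.97).

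Prom1 encodes prominin, a pentaspan protein of membrane protrusions, and it was the member whose sum was not called in CDAHFD advanced livers. Its gene sum over 5 peaks was 66.9, 66.8, 58.5 and 72.8 CPM in FPC controls, 54.6, 68.9, 62.1 and 68.2 in mild and 86.5, 85.7 and 95 in advanced livers. CDAHFD controls read 60.6, 57.1, 53.7 and 79.6, mild livers 58.1, 52, 50.2 and 63.3 and advanced livers 76.4, 54.9 and 76.4. In FPC the advanced livers stood above both other grades, and in CDAHFD all 3 grades overlapped. The FPC change was 0.34 ± 0.13 (adjusted p = 0.024), and it missed the threshold without control replicate 3 (0.29, adjusted p = 0.070) or advanced replicate 3 (0.28, adjusted p = 0.094). In CDAHFD it was 0.10 ± 0.12 (adjusted p = 0.51). None of the 5 peaks is within 1000 bp of the start. The peak 11566 bp upstream, inside the long non-coding gene Gm35900, changed by 1.76 ± 0.18 in FPC and 1.53 ± 0.18 in CDAHFD. Its neighbour 3686 bp upstream rose by 1.01 ± 0.23 and 1.08 ± 0.22 (adjusted p = 4.9e-04 and 1.6e-04). The peaks 44321 bp downstream, in intron 3 (-0.22 ± 0.18 in FPC and -0.32 ± 0.18 in CDAHFD), and 1587 bp upstream (0.16 ± 0.15 and -0.17 ± 0.15) were not called. The peak 49726 bp upstream was higher in FPC advanced livers (0.49 ± 0.19, adjusted p = 0.033), a call lost without control replicate 1 or 3 or any 1 of the 3 advanced livers (0.34 to 0.52). In CDAHFD it was at 0.09 ± 0.18 in advanced livers and fell in mild ones (-0.75 ± 0.18, adjusted p = 0.0014). This last peak lies just inside the 50000 bp limit.

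Spp1 encodes osteopontin, a secreted phosphoprotein of bile duct epithelium and activated macrophages. The sum of its 4 peaks was 32, 27.3, 28.4 and 24 CPM in FPC controls, 29.5, 32.3, 33 and 33.2 in mild and 41.8, 66.9 and 61.7 in advanced livers. For CDAHFD it was 26.8, 38.6, 26.6 and 29.7 in controls, 30.8, 29.9, 34.3 and 27.8 in mild and 37.1, 45.9 and 44.7 in advanced livers. Advanced livers were highest in FPC, whereas 1 CDAHFD control (replicate 2) exceeded the lowest advanced liver of that diet. The sum changed by 0.93 ± 0.14 in FPC (adjusted p = 2.9e-06) and 0.41 ± 0.13 in CDAHFD (adjusted p = 0.0081). In controls 3 distal peaks held nearly all of that sum.

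The Spp1 promoter peak, 50 bp upstream (sequence above), read 0.485, 0.795, 1.01 and 0.759 CPM in FPC controls, 2.01, 1.62, 2.07 and 4.67 in mild and 9.44, 14.8 and 12.1 in advanced livers. CDAHFD controls read 0.282, 0.15, 0.475 and 0.17, mild livers 1.04, 1.57, 3.4 and 3.56 and advanced livers 5.66, 9.35 and 8.82. Grades were separate in both diets. The promoter changed by 3.92 ± 0.40 in FPC and 4.69 ± 0.46 in CDAHFD, and by 1.98 and 2.25 with cyclic loess scaling. The peak 10236 bp downstream, beyond the gene's end, was lower in CDAHFD advanced livers (-0.36 ± 0.14, adjusted p = 0.038) and at 0.34 ± 0.15 in FPC (adjusted p = 0.059). That CDAHFD call was lost when any 1 of 5 libraries (control replicates 1, 2 and 4, advanced replicates 1 and 3) was left out, with changes of -0.36 to -0.29. The peak 17186 bp upstream rose in FPC (1.10 ± 0.21, adjusted p = 1.1e-04) and in CDAHFD (0.52 ± 0.21, adjusted p = 0.035), where the call did not hold without control replicate 1 or 3 or any 1 of the 3 advanced livers (0.39 to 0.53). At 35392 bp upstream the peak was higher in FPC (0.67 ± 0.22, adjusted p = 0.014), a call lost without advanced replicate 2 or 3 (0.53 and 0.59), and was at 0.34 ± 0.21 in CDAHFD (adjusted p = 0.17).

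Bicc1 encodes a cytoplasmic RNA-binding protein known from kidney and bile duct cysts. Its 2 peaks together read 1.94, 2.12, 2.35 and 4.3 CPM in FPC controls, 3.21, 4.49, 4.47 and 6.5 in mild and 15.2, 23.8 and 22.1 in advanced livers. CDAHFD controls read 1.13, 1.65, 1.54 and 2.38, mild livers 4.01, 3.13, 5.5 and 4.92 and advanced livers 11.8, 13.5 and 14.2 CPM. Only FPC mild and control livers overlapped. The gene-level changes were nearly the same size in both diets, 2.84 ± 0.24 in FPC and 2.92 ± 0.25 in CDAHFD. Their difference was -0.07, with a 95% interval of -0.83 to 0.68. The promoter peak 191 bp upstream changed by 1.98 ± 0.25 in FPC and 2.18 ± 0.26 in CDAHFD.

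The intron 1 peak of Bicc1, 6373 bp downstream, was nearly empty in controls. The 4 FPC controls held 1 count in all and the 3 advanced livers 198.5, a ratio of 183 per scaled total with a 95% counting interval of 32.5 to 7273. The 4 CDAHFD controls held 3.5 counts and the 3 advanced livers 135.5, a ratio of 42.6 (interval 16.3 to 159). Ratios and intervals were computed after these totals were rounded to whole numbers, and the intervals cover counting error only. Advanced livers read 6.24, 12.2 and 11.9 CPM in FPC and 5.56, 5.84 and 6.83 in CDAHFD, and mild livers 1.21, 1.26, 1.38 and 1.83 and 1.42, 1.44, 3.24 and 2.3. Every diseased liver lay above every control of its diet. With cyclic loess scaling the change was 3.79 in FPC and 1.25 in CDAHFD. Counting every Bicc1 peak at any distance, including 1 of 28.6 to 35.1 CPM that lies 100585 bp downstream, reduced the CDAHFD gene change to 0.27.

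**Figure D3:**
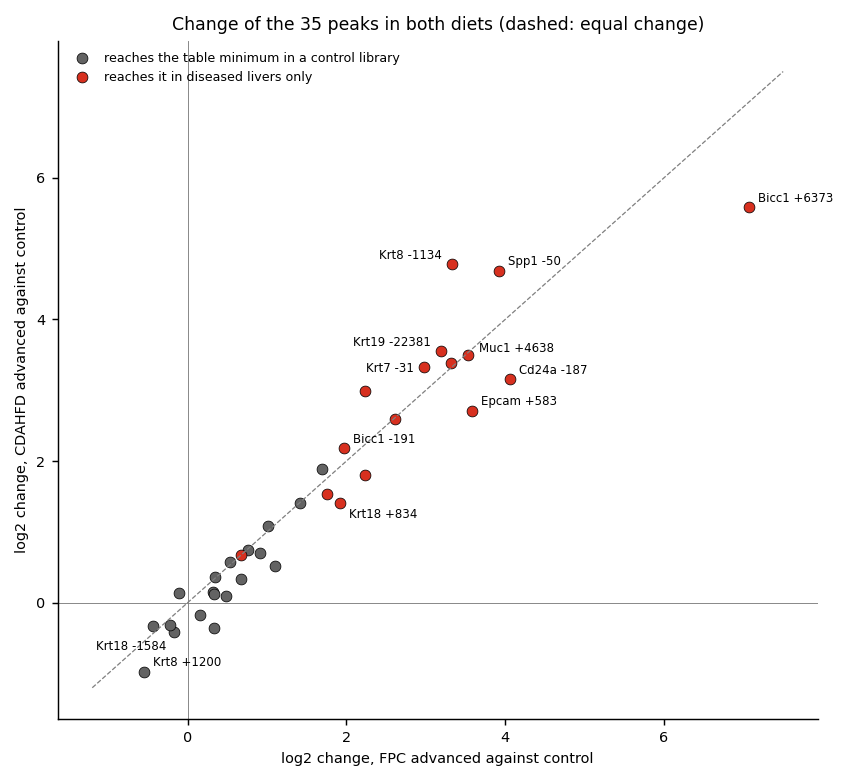
Log2 change of each of the 35 peaks in FPC advanced (horizontal) and CDAHFD advanced livers (vertical), each against its own controls; the dashed line marks equal change and labels give the gene and the distance from its start in bp. The 16 peaks that reach the table's minimum in diseased livers only (red) lie at 0.67 or more in both diets, and the 19 others (grey) lie between -0.97 and 1.89.

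Taken peak by peak, 26 of 35 were higher and 2 lower in FPC advanced livers, beside 27.6% and 28.0% of all peaks. In CDAHFD advanced livers 24 were higher and 3 lower, beside 26.7% and 28.8%. The 24 higher in CDAHFD were also higher in FPC, 1 peak (Krt8, 1200 bp downstream) was lower in both, and none was called in opposite directions. The share of all peaks called alike in both diets was not computed, so nothing is read from this agreement. Among the 19 peaks that reached the table's minimum in controls, 10 were higher and 2 lower in FPC, beside 21.1% and 30.9% of the 62341 such peaks of the table. The figures in CDAHFD were 8 higher and 3 lower, beside 19.5% and 31.8%. All 16 others were higher in both diets, where 89.8% and 96.5% of their kind were, so their count is near that background.

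Compared with controls, 6 gene sums were higher in FPC mild livers and none lower (19.7% and 20.6% of all genes): Krt19 (1.47 ± 0.46), Krt18 (0.27 ± 0.08), Epcam (0.98 ± 0.31), Cd24a (1.73 ± 0.42), Muc1 (0.49 ± 0.19) and Bicc1 (0.79 ± 0.29). Only Krt18 and Muc1 of these have a peak that reached the table's minimum in controls, 2 of 5 such members, beside 18.1% of such genes, and nothing is read from the other 4. The number 6 was 2 without mild replicate 4 and 3 without control replicate 3. Krt7 was at 0.75 ± 0.44, Krt8 at 0.08 ± 0.07, Prom1 at -0.10 ± 0.12 and Spp1 at 0.15 ± 0.14, none of them called. In CDAHFD mild livers 8 were higher and none lower (22.1% and 23.3% of all genes), all but Prom1 (-0.18 ± 0.12) and Spp1 (-0.02 ± 0.12). Of the 8, 3 (Krt8, Krt18 and Muc1) have a peak that reached the minimum in controls, beside 19.7% of such genes. The largest changes were those of Krt19 at 2.16 ± 0.49, Cd24a at 2.08 ± 0.38 and Krt7 at 2.02 ± 0.47. These genes, Epcam and Bicc1 are among the 575 listed for diseased livers alone. Of those, 85.0% were called higher, with a median change of 1.43, so nothing is read from these 5 or their rank. Smaller calls depended on single libraries: Krt18 (0.20 ± 0.07) was lost without control replicate 1 or 2 or mild replicate 3 (0.13 to 0.20), Krt8 (0.20 ± 0.06) without control replicate 2 (0.15) and Muc1 (0.47 ± 0.16) without control replicate 1 or mild replicate 3 or 4 (0.28 to 0.43). Of the single peaks 17 were higher and none lower in FPC mild livers (15.1% and 13.6% of all peaks), and 20 higher and 3 lower in CDAHFD mild livers (20.7% and 20.0%). Among the 19 peaks that reached the minimum in controls, 6 were higher and none lower in FPC mild livers (10.7% and 15% of such peaks), and 5 higher and 3 lower in CDAHFD mild livers (13.8% and 22.1%).

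**Figure D4:**
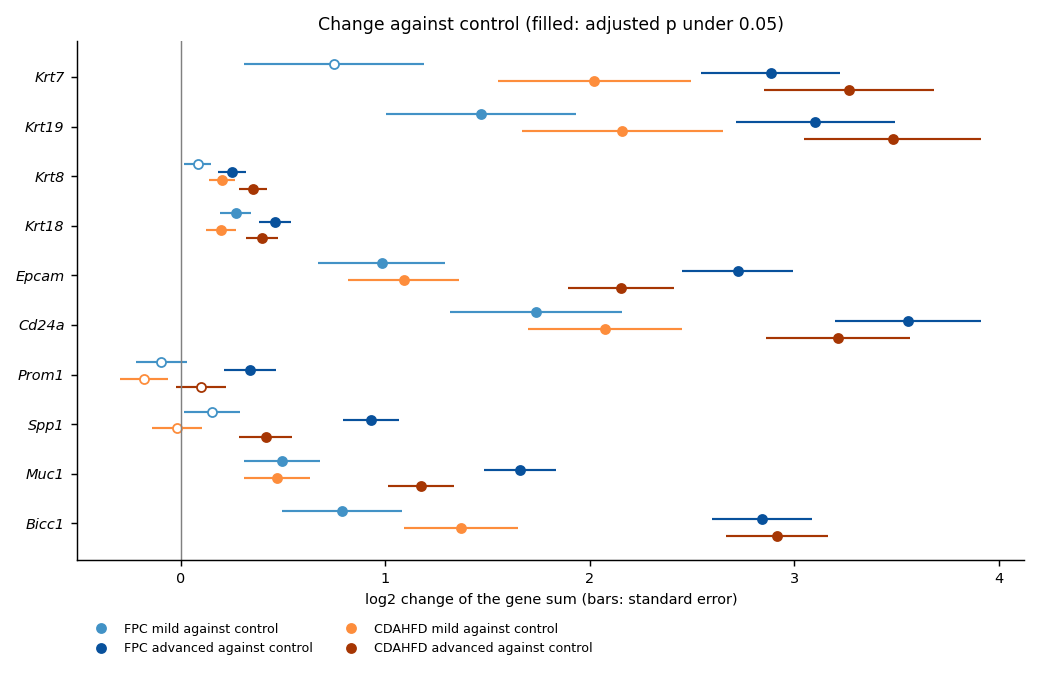
Log2 change of each gene sum against the controls of its diet (horizontal axis, bars for the standard error) in mild and advanced livers, filled where the adjusted p is under 0.05. Cd24a in FPC lies farthest right at 3.56, while Krt8, Krt18, Prom1 and Spp1 stay below 1 in all 4 comparisons.

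Advanced and mild livers of the same diet, which differ in histological fibrosis, were also compared directly. In FPC 8 gene sums were higher in advanced livers and none lower (15.4% and 16.1% of all genes), led by Krt7 (2.14 ± 0.29) and Bicc1 (2.06 ± 0.21). Among the 8 were Krt7, Krt19, Epcam, Cd24a and Bicc1, which are listed for diseased livers alone. Of such genes 74.1% were called higher, so nothing is read from these 5 or their rank. Krt8 (0.17 ± 0.07) and Krt18 (0.19 ± 0.08) were not called, each with an adjusted p of 0.062, although all advanced libraries lay above all mild ones for both. Muc1, Prom1 and Spp1 were called, 3 of the 5 members with a peak that reached the minimum in controls (13.2% of such genes). In CDAHFD 7 were higher and none lower (9.33% and 8.05%), led by Bicc1 (1.54 ± 0.21) and Krt19 (1.32 ± 0.31). The same 5 genes were among the 7, where 61.6% of their kind were called higher, so nothing is read from them or their rank. Of the 5 members with a peak that reached the minimum in controls 2 were called, beside 7.34% of such genes. Spp1 was one of them (0.43 ± 0.13, adjusted p = 0.020), but not without mild replicate 4 or advanced replicate 2 or 3 (0.39 each). For single peaks the counts were 21 higher and 1 lower in FPC (14.7% and 14.6% of all peaks) and 18 higher and 1 lower in CDAHFD (9.28% and 7.26%). Of the 19 peaks that reached the minimum in controls, 6 were higher and 1 lower in FPC (9.11% and 15.8% of such peaks), and 5 and 1 in CDAHFD (4.22% and 7.97%). The number lower in FPC was 0 without any 1 of the 4 mild libraries or advanced replicate 1 or 2, and in CDAHFD 0 without mild replicate 4.

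No gene sum passed the test of a difference between the FPC and the CDAHFD change, for advanced livers (1.99% and 2.81% of all genes called) or mild livers (2.50% and 2.78%), by edgeR, DESeq2 or limma-voom. At an unadjusted p under 0.05, edgeR had 1 for advanced livers and 0 for mild ones. Spp1 had the smallest p for advanced livers, with a difference of 0.52 ± 0.19 (adjusted p = 0.11, 95% interval 0.13 to 0.90). It passed that test without FPC advanced replicate 1 (0.68, adjusted p = 0.019), and turned to -0.81 with the peaks within 10 kb and -0.83 with promoter peaks only. The intervals are wide for the genes with few counts: -1.60 to 0.83 for Krt7, -1.76 to 1.00 for Krt19 and -0.90 to 1.59 for Cd24a. Among peaks none passed for advanced livers by any of these tools, 4 having an unadjusted p under 0.05 in edgeR (0.690% and 0.910% of all peaks called). For mild livers 1 was called, the Krt8 peak named above (1.84% and 1.63% of all peaks). Of the peaks listed for diseased livers alone, as this one is, 0.339% were called higher and 6.35% lower. Between the control groups themselves, which differ in time on the low fat diet, no gene sum was called by these tools, 2 (Krt8 and Krt7) having an unadjusted p under 0.05 in edgeR (3.67% and 2.35% of all genes), and Krt8 was without CDAHFD control replicate 1 (0.24, adjusted p = 0.045). Of the peaks 1 was higher in FPC controls (Krt8, 993 bp downstream) and none lower (2.05% and 0.661% of all peaks). It was called in neither direction without any 1 of 6 of the 8 control libraries (FPC replicates 1, 2 and 3, CDAHFD replicates 2, 3 and 4).

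Pearson's r of log2 CPM over the 22 libraries gave the gene most like each member, out of 15676 others with a mean of at least 1 CPM. All values share libraries, groups and depth, and they are descriptions. Krt7 was most like Mir6404 (r = 0.956), Krt19 like Rab27b (0.969), Krt8 like Map2k3os (0.919) and Krt18 like Jup (0.948). Epcam was most like Il17d (0.965), Cd24a like Nfatc1 (0.973), Muc1 like St14 (0.965) and Bicc1 like Pak6 (0.976). Spp1 (4732491K20Rik, 0.902) and Prom1 (Znrf2, 0.817) had the weakest partners. Within groups, after each group's mean was removed, these r fell to between 0.599 (Prom1) and 0.869 (Krt18). Cd24a had 366 genes with an r over 0.9, Krt8 had 2 and Prom1 none. Between members the highest r was 0.957, for Krt19 and Cd24a.

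Other genes of the bile duct program were taken from a list of 26, of which 23 had a peak within 50000 bp. In FPC advanced livers 15 of them were higher and 3 lower, beside 30.7% and 30.5% of all genes. In CDAHFD 10 were higher and 3 lower, beside 28.5% and 30.0%. Cldn7 and Itgb4 have peaks of the kind listed for diseased livers alone. Without them 13 of 21 were higher and 3 lower in FPC, and 8 and 3 in CDAHFD. Of all genes with a peak that reached the minimum in controls, 28.4% were higher and 31.6% lower in FPC, and 25.9% and 31.1% in CDAHFD. The genes called lower, named after their values were seen, were the water channel Aqp1 (-0.55 ± 0.12 in FPC and -0.39 ± 0.12 in CDAHFD) and the sodium pump subunit Atp1b1 (-0.28 ± 0.06 and -0.27 ± 0.06) in both diets, the bile acid transporter Slc10a2 in FPC (-0.21 ± 0.07) and Wfdc2 in CDAHFD (-0.62 ± 0.21), which was higher in FPC (0.83 ± 0.19). The 4 with the smallest p in FPC were Cdh1, Sox4, Itgb4 and Cldn7. Nothing is read from the rise of Itgb4 and Cldn7, since 91.1% (FPC) and 95.8% (CDAHFD) of the genes of their kind were called higher. Cdh1, the gene of E-cadherin, rose by 1.17 ± 0.10 in FPC and 0.88 ± 0.09 in CDAHFD. Sox4, a transcription factor of bile duct development, rose by 1.00 ± 0.09 and 0.83 ± 0.08. Itgb4, an integrin of the basal side of epithelia, rose by 2.61 ± 0.26 and 2.03 ± 0.27, and the tight junction gene Cldn7 by 3.71 ± 0.38 and 3.63 ± 0.41, from 1.04 CPM in FPC and 0.55 in CDAHFD controls. Of 8 other keratins in the table, 6 were higher and none lower in FPC, and 5 higher and 1 lower (Krt4, -0.29 ± 0.13) in CDAHFD. Without Krt20, Krt42 and Krt79, listed for diseased livers alone, 3 of 5 were higher in each diet, beside 28.4% (FPC) and 25.9% (CDAHFD) of such genes. Krt42, which is of that kind, changed by 3.25 ± 0.37 and 4.25 ± 0.43, and nothing is read from its rank. The others named by p were Krt23 (0.73 ± 0.12 and 0.70 ± 0.11), Krt25 (1.71 ± 0.33 and 1.53 ± 0.25) and Krt78 (0.42 ± 0.08 and 0.59 ± 0.08), the neighbour of Krt8.

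Markers of other cell types moved as follows, and their part in the results above was not tested. Over all genes 30.7% were called higher and 30.5% lower in FPC advanced livers, and 28.5% and 30.0% in CDAHFD. Hepatocyte markers were lower in 12 of 16 cases in FPC advanced livers and higher in none, and their sum was 2138 to 2593 CPM there. In CDAHFD advanced livers 10 were lower and 1 higher, with a sum of 2355 to 2583 CPM. The bile acid transporter gene Slc10a1 fell in both diets (-1.06 ± 0.11 in FPC and -1.15 ± 0.11 in CDAHFD). The 10 members together rose from 374 to 416 CPM in FPC controls to 583 to 696 in advanced livers, and from 342 to 403 to 506 to 583 CPM in CDAHFD. Most of the FPC control mean of 391 CPM came from Krt8 (118), Krt18 (162) and Prom1 (66.3). Those 3 genes had means of 150, 239 and 89.1 CPM in FPC advanced livers. The bile duct keratins Krt7 and Krt19 went from 0.849 and 1.00 to 7.16 and 8.90 CPM. Of the 2 stellate markers with a peak, Col1a1 rose (1.41 ± 0.16 and 0.76 ± 0.15) and Reln was not called, and Lrat, Des, Pdgfrb, Col1a2, Col3a1, Acta2, Ngfr, Dcn, Lum and Hand2 had no peak within 50000 bp. The summed stellate level was 22.8 to 37.3 CPM in FPC controls and 43.2 to 58.6 in advanced livers, and 31.6 to 42.4 and 38.9 to 51.6 in CDAHFD.

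For macrophages, 3 of 4 markers were higher and 1 lower in FPC, and 2 higher and 1 lower in CDAHFD. Over all genes the shares were 30.7% and 30.5% in FPC and 28.5% and 30.0% in CDAHFD. With so few genes per list, nothing is read from the counts in this paragraph. Their sum went from 22.9 to 28.1 CPM in FPC controls to 34.2 to 36.6 in advanced livers, and from 24.1 to 27.1 to 37.3 to 43.7 in CDAHFD. Csf1r rose by 0.68 ± 0.22 and 0.98 ± 0.21, whereas Trem2 fell (-0.56 ± 0.20 and -0.70 ± 0.18), and Clec4f, Cd68, Timd4, Marco, Vsig4, Cd5l, Lyz2 and Gpnmb had no peak. Endothelial markers were higher in 1 of 7 cases and lower in 2 in FPC (1 and 3 in CDAHFD), with sums of 156 to 170.5 CPM in FPC controls and 161 to 165 in advanced livers, and 175 to 207 and 158 to 189.6 in CDAHFD. The 3 lymphocyte genes with a peak (Ptprc, Cd8a and Cd4) summed to 81.9 to 93.6 CPM in FPC controls and 41.7 to 54.1 in advanced livers, and to 87.1 to 102 and 43.1 to 50.4 in CDAHFD. Of these, 2 were lower in both diets, and Cd8a was higher in CDAHFD.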

How the data were processed

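ATAC-seq counts came from 22 libraries of immunoprecipitated mouse liver nuclei in 6 groups, each made from about 25000 bead-bound nuclei with 12 PCR cycles, per the labels' protocols. The submitters' processing notes name BWA 0.7.5a-r405, SAMtools, HOMER, DESeq2 and the build mm10, with no role for each. The un-normalized peak table, as deposited, holds expected counts (47.8% of values end in 0.5) per peak with the nearest gene and its distance, and counts were rounded to whole numbers for the tests. The normalized table was not used here. Peaks were tested singly, and gene sums added the peaks within 50000 bp of a start.

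The test was edgeR 4.0.16's quasi-likelihood test (R 4.3.3) with TMM scaling, edgeR's filter on low counts, 6 group means and Benjamini-Hochberg adjustment over 68827 peaks or 15686 genes. Its peak fit was also run on simulated counts in which few peaks changed, in FPC advanced livers only. Many peaks changed in the data themselves, so nothing about error rates here is read from that run. Alternatives were RLE, total count and cyclic loess scaling, other filters and windows, limma-voom (limma 3.58.1), DESeq2 1.42.0 and leaving out each library. Named were the promoter peak and the peak of smallest p for each gene, the others by group, and up to 4 genes of each list by p in FPC. The members and lists were chosen with earlier results of these data known. No genome was used here, so motifs were searched in RefSeq promoter windows instead of peaks. Intervals of count ratios are exact at 95%.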

Additional observations from a re-analysis of the deposited data

Results flagged for a closer look

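Of 96 groups of 4 libraries checked for a library far from the others, 3 had one, where chance gives about 1 in 20, or 4.8. At the Krt8 peak 1134 bp upstream, CDAHFD control replicate 4 held 0 CPM and the other 3 controls 0.594 to 0.706. At the Spp1 promoter peak, FPC mild replicate 4 held 4.67 CPM and the other 3 mild livers 1.62 to 2.07. At the Bicc1 peak 6373 bp downstream, FPC control replicate 4 held 0.253 CPM and the other 3 controls 0.

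The change of the Krt8 peak 1134 bp upstream in mild livers differed between the diets by -1.95 ± 0.56 (called in edgeR's interaction test), with the larger change in CDAHFD. Of the peaks listed for diseased livers alone, as this one is, 6.35% were called lower in that test, so nothing is read from the call. The call was lost in 13 of 16 fits without 1 library, and with cyclic loess scaling, thinned libraries, only the groups compared or limma-voom.

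Peaks assigned to members beyond 50000 bp also changed in advanced livers. Those of Epcam lie 64222, 65148 and 65820 bp upstream and were higher in FPC (0.41, 1.2 and 2.04) and in CDAHFD (0.54, 1.27 and 2.36). A Bicc1 peak 100970 bp downstream was higher in CDAHFD (0.58, adjusted p = 0.0041) and at 0.40 in FPC (adjusted p = 0.057).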

How the results depend on the processing

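No paired analysis was possible because the labels give no replicate numbers shared between groups; replicates were numbered in accession order. Thinning to the smallest total and counting overlapping peaks once were chosen after seeing the data. For gene sums called higher, the FPC mild count was 3 with cyclic loess scaling, 3 with promoter peaks only and 2 to 6 with a library left out. The CDAHFD mild count was 5 when only the groups compared were fitted and 4 with promoter peaks only. Promoter peaks only also gave 6 for FPC advanced against control, 5 for FPC advanced against mild and 1 for the control groups. With a library left out, the control groups gave 0 to 1 and the diet difference of the advanced change 0 to 1. Promoter peaks only leave fewer genes tested by construction; the cause of the other shifts was not tested.

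For peaks, the number lower in FPC advanced against mild was 0 with RLE scaling, cyclic loess scaling and DESeq2, and 0 to 1 with a library left out. The number higher in FPC against CDAHFD controls was 0 with total count scaling, the stricter filter, thinned libraries and only the groups compared, and 0 to 1 with a library left out. In CDAHFD advanced against mild, 9 were higher with cyclic loess scaling, and 0 to 1 lower with a library left out. The diet difference of the mild change had 0 lower with cyclic loess scaling, thinned libraries, only the groups compared and limma-voom, and 0 to 1 with a library left out. Thinned libraries gave 1 lower in FPC advanced against control, and limma-voom 11 higher in FPC mild.

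The values that changed direction follow, and the cause was not tested. Fits with another window or with promoter peaks only also rescaled the libraries on the peaks they kept. Their values are therefore not on the scale of the main fit. The Spp1 sum in CDAHFD mild livers (-0.02) was 0.0103 with total count scaling, 0.0146 at any distance, 2.97 within 10 kb, 2.94 with promoter peaks only and -0.0711 to 0.11 with a library left out, and its diet difference for advanced livers was -0.81 within 10 kb and -0.83 with promoter peaks only. Cyclic loess scaling gave -0.0805 for the Krt7 peak in CDAHFD advanced livers and -0.23 against mild, and -0.41 for the Bicc1 peak 6373 bp downstream against mild. Thinned libraries gave -0.0593 for the Prom1 peak 49726 bp upstream (-0.0177 to 0.37 with a library left out) and -0.0259 for the Muc1 promoter peak in CDAHFD advanced livers. Within 10 kb the Krt18 sum was at -0.0369 in CDAHFD advanced and -0.0605 in mild livers. With promoter peaks only, Krt8 was at -0.0853 in FPC advanced livers, -0.15 against mild and -0.0282 in CDAHFD advanced against mild, and Muc1 at -0.11 in CDAHFD mild livers. At any distance Bicc1 was at -0.0507 in FPC mild and -0.13 in CDAHFD mild livers. Depth limits the low peaks: Krt7 held 1 to 7.5 counts per control library.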
